A study of Mus musculus with 292 samples.

Results

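The genes described here are 10 genes of the major histocompatibility complex (MHC) and of antigen presentation, listed by name: the class I chains H2-K1, H2-D1, H2-T23 and B2m, the peptide transporter subunit Tap1, and the class II genes H2-Eb1, H2-Ea, H2-Aa, H2-Ab1 and Cd74. Of the 10 genes, 7 had an annotated probe, with 1 probe each, out of 11640 named genes and 23574 probes in the table. H2-D1, H2-Ab1 and Cd74 had no annotated probe and were not analysed here. RNA of the brain was measured in 292 F2 mice, 1 array for each mouse, against a pool made of equal parts of RNA of every sample, with the mouse in Cy3 and the pool in Cy5. The mice came from an intercross of C57BL/6J and C3H/HeJ carried out in both directions. All of them, females and males, ate chow with 4% fat to week 8. Then came 12 weeks of a Western diet, in which fat made up 42% and cholesterol 0.15%, and brains were taken at 20 weeks of age after 12 h without food. The sex, the direction of the cross and the genotype of single mice were not given in the sources used here, so that the 292 mice formed 1 group. A value is the log10 of the ratio of mouse to pool. Neither the base nor the direction of the ratio was stated. With the sign turned, higher reads lower, and relations between genes stay as they are.

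Class I molecules consist of a heavy chain, encoded by genes such as H2-K1, and the light chain B2m. They show peptides from inside the cell to CD8 T cells, and Tap1 is a subunit of the transporter that carries these peptides into the endoplasmic reticulum. Class II molecules pair an alpha chain (H2-Aa, H2-Ea) with a beta chain (H2-Ab1, H2-Eb1) and show peptides from endosomes to CD4 T cells. H2-T23 encodes Qa-1, a non-classical class I chain read by receptors of natural killer cells. Most of these genes are induced by interferons, interferon-gamma above all for class II, and the resting brain holds little of them, mainly in microglia, endothelium and the brain's borders. C57BL/6J carries the b haplotype of the complex, which lacks expression of H2-Ea because of a deletion in its promoter, whereas C3H/HeJ carries the k haplotype. The gene table lists H2-Ea as a transcribed pseudogene in C57BL/6J.

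The promoters of these genes are shown first because several of the genes moved together across mice and class I and class II promoters share motifs. Windows of 200 bases, from 180 bases before to 20 bases after the RefSeq start, were taken from RefSeq on build GRCm38.p6, the C57BL/6J sequence, and are written 5′ to 3′ on the strand of the gene. Capitals mark the Y box CTGATTGG, the core of sites for interferon regulatory factors AANNGAAA, and the core GGGATTCCC of a kappaB site, which NF-kappaB factors bind, searched on both strands. Of the 7 measured genes, 6 had an entry, all but H2-Ea. The window of Tap1 is not printed, as none of the marked motifs lay in it. The windows of the class I heavy chains and light chain are chr17:34000328-34000527 on the minus strand for H2-K1, chr17:36032682-36032881 on the minus strand for H2-T23 and chr2:122147507-122147706 on the plus strand for B2m. Those of the class II chains are chr17:34305687-34305886 on the plus strand for H2-Eb1 and chr17:34287804-34288003 on the minus strand for H2-Aa.
H2-K1: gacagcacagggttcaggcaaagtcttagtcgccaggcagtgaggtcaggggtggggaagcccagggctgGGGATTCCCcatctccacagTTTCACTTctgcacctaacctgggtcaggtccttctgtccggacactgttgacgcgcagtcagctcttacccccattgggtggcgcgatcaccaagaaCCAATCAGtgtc
H2-T23: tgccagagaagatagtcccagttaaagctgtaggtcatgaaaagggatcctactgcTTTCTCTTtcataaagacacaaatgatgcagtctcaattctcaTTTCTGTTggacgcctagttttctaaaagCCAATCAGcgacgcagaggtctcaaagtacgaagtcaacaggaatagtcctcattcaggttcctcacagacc
B2m: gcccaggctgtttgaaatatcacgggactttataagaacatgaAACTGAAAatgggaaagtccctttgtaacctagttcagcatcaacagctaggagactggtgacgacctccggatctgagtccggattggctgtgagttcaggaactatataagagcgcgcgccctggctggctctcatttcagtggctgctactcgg
H2-Eb1: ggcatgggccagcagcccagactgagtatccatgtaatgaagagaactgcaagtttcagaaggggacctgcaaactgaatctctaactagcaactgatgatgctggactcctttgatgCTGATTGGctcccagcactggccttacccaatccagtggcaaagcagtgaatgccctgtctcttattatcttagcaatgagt
H2-Aa: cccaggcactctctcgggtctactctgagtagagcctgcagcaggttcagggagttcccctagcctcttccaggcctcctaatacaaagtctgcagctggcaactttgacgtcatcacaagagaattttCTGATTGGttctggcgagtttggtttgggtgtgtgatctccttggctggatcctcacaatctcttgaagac
Both class I heavy chain windows held the Y box in its reverse orientation and a core AANNGAAA on the minus strand, with 1 core in H2-K1 and 2 in H2-T23. In the H2-K1 window the kappaB core stood before it. B2m had a core but no exact Y box. H2-Eb1 and H2-Aa held the Y box on the plus strand, and no core lay in their printed windows. Outside the printed windows, a core started 213 bases before the start in H2-Aa and a Y box in its reverse orientation 222 bases before the start in Tap1. Among the 300-base windows of all 27025 genes in the promoter table, 4.31% held the Y box, 24.2% the core AANNGAAA and 0.37% the kappaB core. The motifs were chosen after the sequences had been seen, and a match describes letters, not binding.

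The arrays fell into 3 batches by the probes that were missing on them. Batch A held 74 arrays, batch B 77 and batch C 141. Batch B was the same set of mice as the 77 arrays whose description had a second spelling (form 2), so that batch and spelling cannot be told apart there. Eif2s3y, a gene of the Y chromosome, had median log10 ratios of -1.65, 0.281 and -0.0631 in batches A, B and C, and its part in the results was not tested. It ran from -1.88 to 0.326 in batch A, from -1.60 to 0.385 in B and from -1.89 to 0.123 in C. Batch, spelling and this signal of the Y chromosome, and so of sex, are thus entangled. Differences of the members between batches or forms cannot be told apart from it in these fits. Centring within batches leaves its spread inside each batch. Across probes, 3.39% of pairs of arrays had an r below -0.3, around a median of 0.109, with extremes of -0.638 and 0.795. That correlation is across probes, which are not independent. Each mouse is a separate animal with no technical repeat, and no intensities were used, so that precision here rests on how many arrays there were. Neuron, astrocyte and oligodendrocyte markers were on the array, but a ratio to a pool of the same tissue cannot show whether a marker is present or absent. In bulk brain, fewer cells of a type and less RNA per cell cannot be told apart.

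Of the class I chains, H2-K1 ranged from -0.251 in mouse 318 over a median of -0.00844 to 0.192 in mouse 74. Its mean was -0.0174 ± 0.0784 (SD, n = 292), with 129 mice above and 163 below the pool. The range from the 5th to the 95th percentile of mice spanned 1.83-fold. H2-T23 ran from -0.215 in mouse 334 over a median of -0.00991 to 0.171 in mouse 176, with a mean of -0.0153 ± 0.0678 (SD, n = 292), and the same range spanned 1.64-fold. B2m, the light chain that every class I molecule needs, lay between -0.198 in mouse 318 and 0.353 in mouse 333, with a median of 0.0145. Its mean was 0.0199 ± 0.0794 (SD, n = 292), and the range from the 5th to the 95th percentile was 1.76-fold. Mouse 318 thus had the lowest value of both H2-K1 and B2m, and its H2-T23 value was -0.182. Mouse 333, with the highest B2m, also had the highest H2-T23 value of batch C, at 0.0952.

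Tap1 was lowest in mouse 199 at -0.317 and highest in mouse 349 at 0.169, with a median of -0.0152 and a mean of -0.0121 ± 0.0528 (SD, n = 292). Its range from the 5th to the 95th percentile was 1.44-fold. The lowest value, 2.07-fold below the pool, stood apart from the rest of batch B.

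Among the class II chains, H2-Eb1 varied most. It ran from -0.273 in mouse 131 over a median of -0.00513 to 0.365 in mouse 253, that is from 1.88-fold below to 2.32-fold above the pool. Its mean was -0.00695 ± 0.101 (SD, n = 292), and the range from the 5th to the 95th percentile was 2.15-fold. The SD was larger than that of 92.9% of all probes. H2-Aa, the alpha chain of the other class II molecule and the direct neighbour of H2-Eb1 in the order of genes, varied little. It lay between -0.247 in mouse 229 and 0.124 in mouse 175 around a median of -0.00302, with a mean of -0.000769 ± 0.0308 (SD, n = 292). Its 5th to 95th percentile range was 1.2-fold and its SD larger than that of 12.9% of the probes. H2-Ea ran from -0.165 in mouse 349 over a median of -0.0185 to 0.226 in mouse 199, the mouse with the lowest Tap1. Its mean was -0.0149 ± 0.0542 (SD, n = 292), and its 5th to 95th percentile range was 1.48-fold. By SD the other members stood above 84.4% of the probes for B2m, 83.7% for H2-K1, 75.3% for H2-T23, 57.7% for H2-Ea and 55.6% for Tap1.

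**Figure D1:**
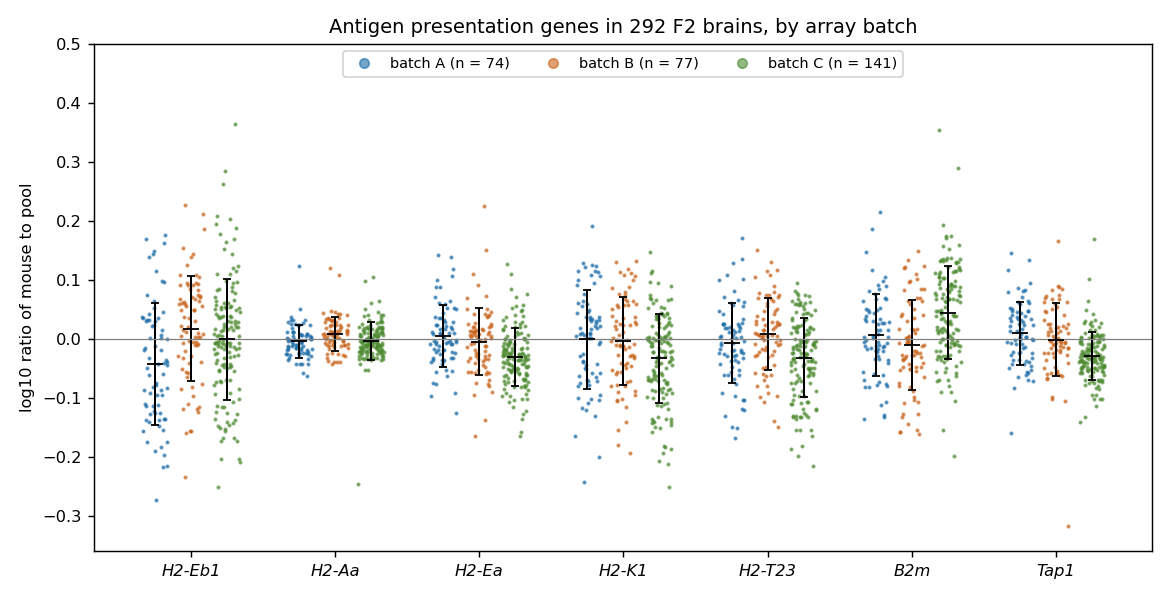
Log10 ratio of mouse to pool (vertical axis) for the 7 measured genes, 1 point for each mouse, coloured by array batch, with black bars for the mean ± SD of the batch. H2-Eb1 spreads most, from -0.273 to 0.365, H2-Aa least, and the batches overlap for every gene.

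None of the 7 genes differed from the pool by the rule of 1.2-fold in the mean with an adjusted p under 0.05 (limma, Benjamini-Hochberg over all probes). That rule called 0.586% of all probes, 0.106% higher and 0.48% lower. Mean distances from the pool reached at most 1.05-fold, for B2m, with the pool itself made of the same mice. On the adjusted p alone, 5 of 7 passed, all but H2-Eb1 and H2-Aa, where 68.4% of all probes passed: B2m was higher (adjusted p = 5.68e-05), and H2-Ea, H2-K1, H2-T23 and Tap1 were lower. With array weights in the fit H2-Aa also passed (mean -0.00411, limma adjusted p = 0.00572).

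Batch means of all 7 genes differed (limma F test, adjusted p from 4.09e-07 for Tap1 to 0.0256 for H2-Aa), as did those of 64% of all probes, and the ranges of the batches overlapped for every gene. H2-Eb1 averaged -0.0427, 0.0169 and -0.00119 in batches A, B and C. Tap1 averaged 0.00941 in batch A and -0.0292 in batch C. B2m went the other way, with 0.00603 in batch A and 0.0441 in batch C. Between the spelling forms, 4 of 7 genes were called, where 45.4% of all probes were: form 2 was higher for H2-Eb1 (adjusted p = 0.0362), H2-Aa (0.0112) and H2-T23 (0.00138) and lower for B2m (0.000253). With batch in the fit, no member followed the mouse number at an adjusted p under 0.05 (adjusted p from 0.208 for Tap1 to 0.813 for H2-T23), where 18% of all probes did, and none did at an unadjusted p under 0.05. Gaussian mixtures with up to 3 components found no clusters of mice for any member.

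Relations between genes were then read across the 292 mice, with values centred within batches. A relation was called at an adjusted p under 0.05 in limma with batch in the fit, adjusted over all other probes. By this rule the share of all probes called was 37.5% with H2-Eb1, 19.3% with H2-Ea, 44% with H2-Aa, 9.32% with H2-K1, 30.7% with H2-T23, 46.4% with B2m and 54.5% with Tap1. Positive and negative calls made up 16.3% and 21.2% for H2-Eb1, 8.03% and 11.3% for H2-Ea, 25% and 19% for H2-Aa, 5.12% and 4.2% for H2-K1, 15% and 15.7% for H2-T23, 19.3% and 27.2% for B2m, and 27.2% and 27.3% for Tap1. In batches A, B and C alone, on fewer mice, the shares called were 3.54%, 10.7% and 11.8% for H2-Eb1, 2.15%, 1.65% and 20% for H2-Ea, 1.13%, 4.32% and 41.8% for H2-Aa, and 1.81%, 2% and 1.28% for H2-K1. They were 24.3%, 14.2% and 1.7% for H2-T23, 28.1%, 44.9% and 28.2% for B2m, and 39.5%, 30.3% and 20.8% for Tap1. The relation differed between batches (limma interaction, adjusted over all probes) for 0.14% of probes with H2-Eb1, 1.13% with H2-Ea, 11.7% with H2-Aa, 0.178% with H2-K1, 8.9% with H2-T23, 37.4% with B2m and 16.7% with Tap1. The first principal component of all probes, an axis of variation across arrays, held 12.3% of the variance within batches. With that component in the fit the shares were 7.05% with H2-Eb1, 22.9% with H2-Ea, 35.5% with H2-Aa, 15.7% with H2-K1, 34.7% with H2-T23, 45.2% with B2m and 51.1% with Tap1. Without the 2 mice farthest from its median, 318 and 195, H2-K1 was called with 1230 probes in place of 2194. Permutation p-values come from 100000 permutations within batches, two-sided, and 1e-05 is the smallest they can give.

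Of the 21 pairs of measured genes, 10 were called. With the genes read from, 9.32% (H2-K1) to 46.4% (B2m) of all probes were called. Each pair was read in a single direction, from the gene that comes first in the order H2-Eb1, H2-Ea, H2-Aa, H2-K1, H2-T23, B2m, Tap1. Its adjusted p was taken over the probes fitted on that gene. Read the other way, a pair near the threshold may change its call, and those calls are not given here. The class I heavy chains H2-K1 and H2-T23 had the closest relation. Their r was 0.704 and their rho 0.672 (permutation p = 1e-05 for both, limma adjusted p = 1.55e-40). In batches A, B and C the r was 0.588, 0.658 and 0.796, and it was 0.697 without the 2 mice farthest from the median of H2-K1. Between them lie 178 genes of the gene table. Class I heavy chains are near-identical in long stretches, so that a probe may read more than its own gene. Probe sequences were not used here and this was not tested.

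**Figure D2:**
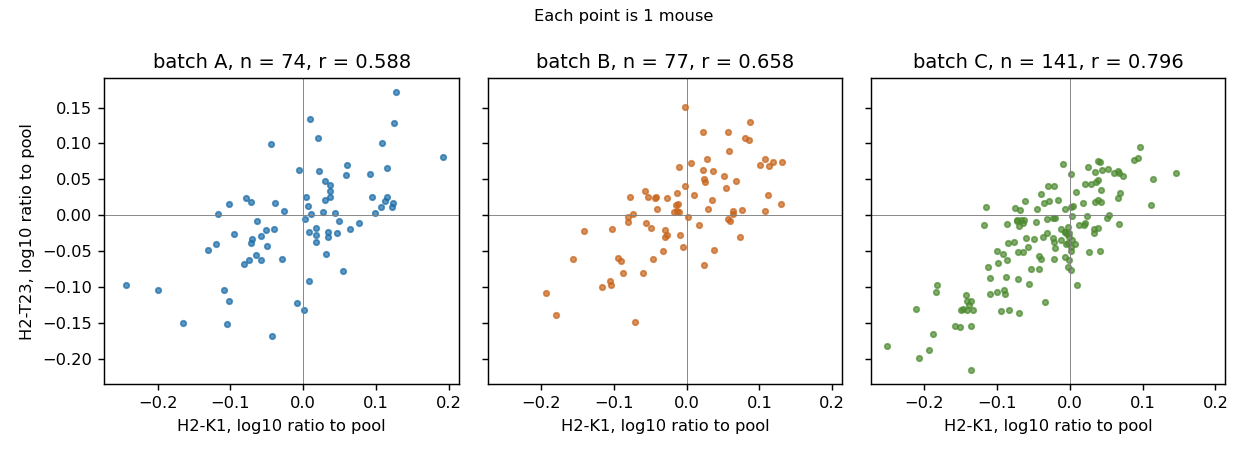
Log10 ratio to the pool of H2-K1 (horizontal axis) and H2-T23 (vertical axis), 1 point for each mouse, in each array batch. The points rise together in all 3 batches, with r of 0.588, 0.658 and 0.796.

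The class II beta chain H2-Eb1 followed both class I heavy chains. With H2-T23 the r was 0.440 and rho 0.391 (permutation p = 1e-05 for both, limma adjusted p = 5.56e-12), with r of 0.504, 0.430 and 0.411 in batches A, B and C and 0.434 without the 2 extreme mice. With H2-K1 the r was 0.416 and rho 0.382 (permutation p = 1e-05 for both, limma adjusted p = 1.08e-10), with 0.450, 0.248 and 0.477 in the batches and 0.388 without the 2 mice. With the first principal component in the fit these values were 0.530 and 0.452. Mouse 253, the highest for H2-Eb1, had the highest H2-K1 of batch C, at 0.146.

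B2m, on chromosome 2, was called with all 3 of these chromosome 17 genes. The r with H2-Eb1 was 0.271 and rho 0.191 (permutation p = 1e-05 and 0.00098, limma adjusted p = 7.76e-05), with 0.450, 0.396 and 0.134 in batches A, B and C and 0.228 without the 2 extreme mice. With H2-K1 the r was 0.249 and rho 0.184 (permutation p = 1e-05 and 0.00159, limma adjusted p = 0.000764), with 0.267, 0.237 and 0.248 in the batches and 0.219 without the 2 mice. For H2-T23 the r was 0.193 and rho 0.168 (permutation p = 0.00114 and 0.00418, limma adjusted p = 0.00508), with 0.237, 0.236 and 0.153 in the batches and 0.191 without the 2 mice. Without the batch term that relation was not called (r = 0.102, limma adjusted p = 0.161). In no single batch was B2m called with H2-K1 or with H2-T23 (limma adjusted p from 0.117 to 0.397). The relation of B2m with Tap1 was weak, with r of 0.160 and rho of 0.123 (permutation p = 0.00555 and 0.0342, limma adjusted p = 0.0160). In the batches it was 0.0939, 0.127 and 0.237, and 0.120 without the 2 mice. With the first principal component in the fit it was no longer called (r = 0.106, adjusted p = 0.129), nor without the batch term (r = 0.0582, adjusted p = 0.401).

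The remaining 3 called pairs were small. H2-Eb1 and its neighbour H2-Aa had an r of 0.160 but a rho of 0.110 (permutation p = 0.00690 and 0.0613, limma adjusted p = 0.0219), with 0.163, 0.0817 and 0.192 in the batches and 0.101 without the 2 mice. H2-Aa and H2-T23 had an r of -0.136 and a rho of -0.179 (permutation p = 0.0201 and 0.00217, limma adjusted p = 0.0459). Its sign differed between batches, with 0.0639, -0.289 and -0.159 in A, B and C, and the r was -0.171 without the 2 mice. H2-Ea and Tap1 had an r of -0.165 and a rho of -0.0296 (permutation p = 0.00670 and 0.615, limma adjusted p = 0.0311). This relation rested on extreme mice: without mice 199 and 203, farthest from the median of H2-Ea, the r was -0.0519. In the batches it was -0.146, -0.387 and 0.0348, and mouse 199 held both the highest H2-Ea and the lowest Tap1.

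In the direction read, the other 11 pairs were not called with batch in the fit over all mice. H2-T23 and Tap1 came nearest, with r of -0.141 and rho of -0.127 (permutation p = 0.0152 and 0.0298, limma adjusted p = 0.0513). H2-Aa and H2-K1 had an r of -0.127 (limma adjusted p = 0.0650). That pair was called with arrays scaled to equal spread (-0.154), with the first principal component (-0.144) and by rank (-0.182). It was also called without the 2 mice farthest from the median of H2-Aa, 229 and 175 (-0.180). In batch C alone H2-Ea was called with H2-K1 (0.216) and B2m (0.248), in batch A alone H2-T23 with Tap1 (-0.323), and without the batch term H2-Ea with H2-T23 (0.146). H2-Ea, the alpha chain that pairs with H2-Eb1, had an r of -0.000533 and a rho of 0.00346 with it (permutation p = 0.993 and 0.953, limma adjusted p = 0.995; -0.0895, -0.0607 and 0.0826 in the batches; -0.0145 without the 2 mice). The pair has 1 gene between them in the gene table. Neither intensities nor probe sequences were used, and whether the H2-Ea probe reads its transcript in this tissue was not tested. Tap1, 18 genes from H2-K1, had an r of 0.0448 and a rho of 0.0375 with it (permutation p = 0.448 and 0.527, limma adjusted p = 0.702). In the batches that r was 0.122, -0.0388 and 0.0559, and 0.0247 without the 2 mice. No pair had a relation that differed between batches by the interaction test (limma, adjusted over all probes), and 7 of 21 passed it at an unadjusted p under 0.05.

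**Figure D3:**
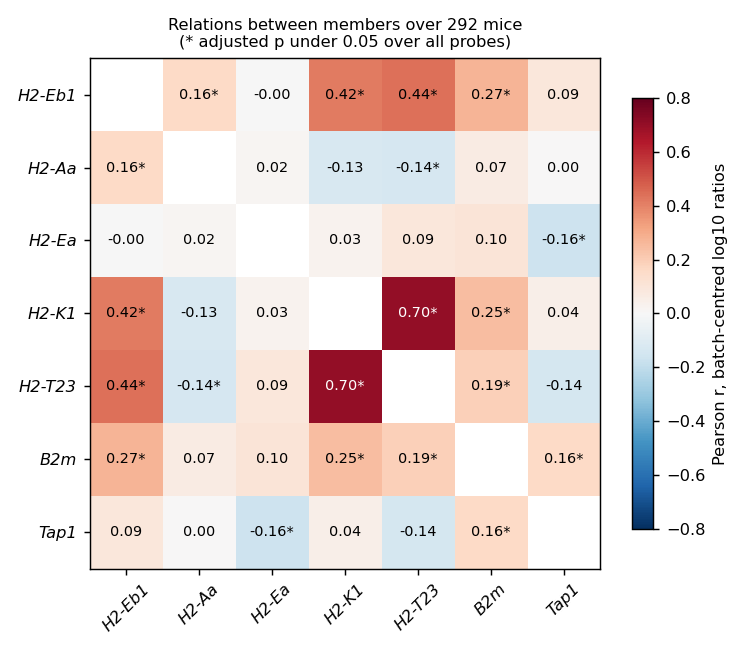
Pearson r over 292 mice of batch-centred log10 ratios for each pair of the 7 measured genes (rows and columns), with asterisks where the limma adjusted p was under 0.05 in the direction read. H2-K1, H2-T23 and H2-Eb1 stand together with r from 0.42 to 0.70, and H2-Ea is near 0 with most genes.

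Position along the chromosome was read from the order of genes in the gene table, as counts of genes between. Of 507 named genes on chromosome 17 apart from the members, 116 were called with H2-K1, a share of 22.9%, against 8.08% of the 10286 genes on other chromosomes, and 9.32% of all probes. Chromosome 17 had the highest share of the 20 chromosomes compared. It was also first for H2-T23, with 41.0% against 29.9%, and for H2-Eb1, with 43.2% against 36.5%. With the first principal component in the fit, H2-Eb1 had 19.3% on chromosome 17 against 6.82% elsewhere, H2-K1 30% against 14.2% and H2-T23 47.3% against 33.8%. For the other chromosome 17 members the own chromosome did not lead over all mice: it ranked 5th for H2-Aa (44.2% against 42.6%), 10th for Tap1 (53.6% against 53.7%) and 16th for H2-Ea (16.4% against 18.1%). B2m had 49.2% of 883 genes on its own chromosome 2 against 45.9% elsewhere, rank 4. In single batches it did rank first for H2-Ea in batch B (2.17% against 1.3%) and batch C (21.7% against 19%), for H2-Aa in batch B (8.88% against 4.33%), and in batch C for Tap1 (26% against 19.8%) and B2m (31.5% against 27.8%). These shares are descriptions with no test.

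How the share of called genes changed with distance differed between members. For H2-K1 the share was 24.4% of the 41 genes with up to 49 genes between, 25% from 50 to 199, 28.3% from 200 to 499 and 16.1% from 500 on. For H2-Eb1 it was 50%, 50%, 47.5% and 33.7% in the same steps, and for H2-T23 55.6% of 27 genes, then 38%, 36% and 44.6%. Tap1 had 60.4% of 48 genes in the nearest step and 49.5%, 53.4% and 54% farther out, and in batch A alone 54.2%, 35.2%, 36% and 34.9%. H2-Aa (44.7%, 48.9%, 41.2% and 44.7%) and H2-Ea (16.7%, 10.9%, 18.8% and 16.8%) had their highest shares farther out. Both signs occurred at all distances: among the nearest genes, H2-K1 had 4 positive and 6 negative calls and H2-Eb1 9 and 14. H2-T23 had 10 and 5 there, Tap1 20 and 9, H2-Aa 19 and 2, and H2-Ea 2 and 6. The shares of all probes called in each direction are given above.

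**Figure D4:**
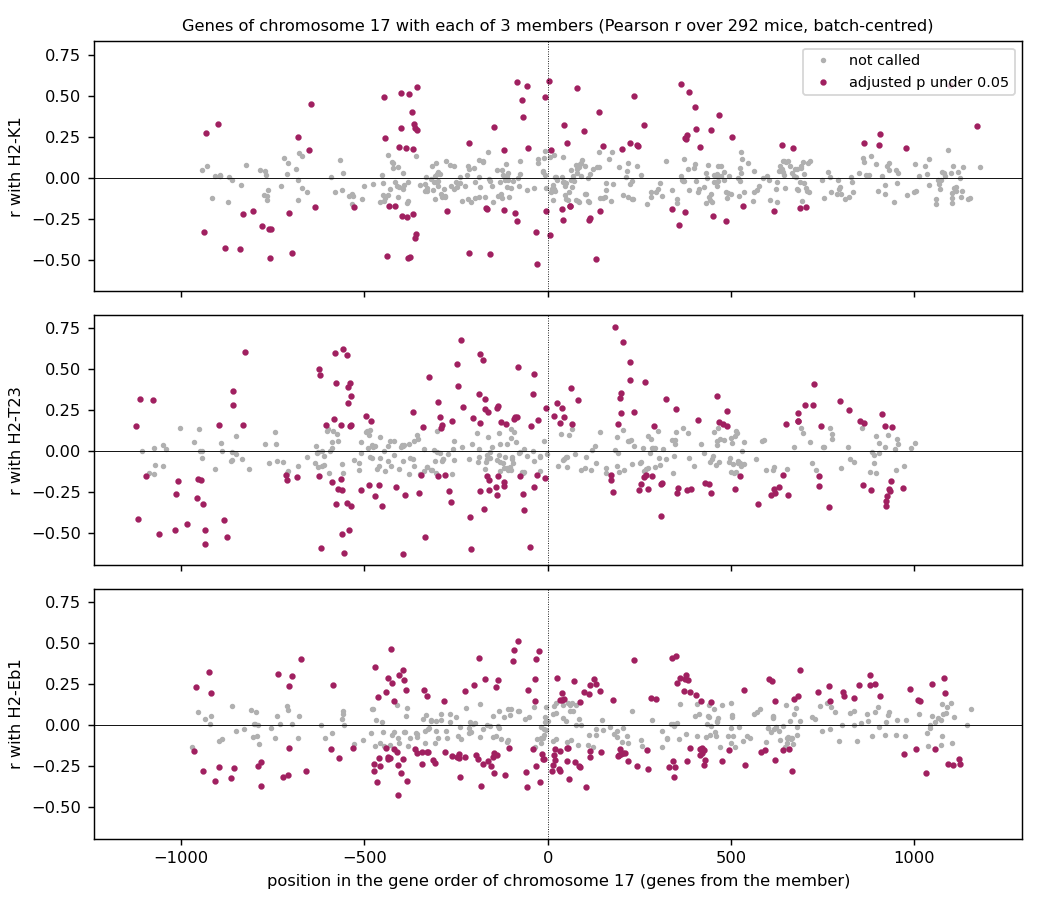
Pearson r over 292 mice (vertical axis) of named genes of chromosome 17 with H2-K1, H2-T23 and H2-Eb1, at their distance in gene order from the member (horizontal axis), coloured where the adjusted p was under 0.05 and without genes whose values form clusters. Called genes of both signs lie along the whole chromosome, and the largest r is 0.761, of Adgrf4 with H2-T23.

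The genes most like each member were taken as the 5 named genes with the largest absolute r. All of these relations without clusters had permutation p-values of 1e-05 for r and rho. As the genes were picked by their r in the same mice, these p-values do not allow for the choice and add no support. For H2-T23 the most like was Adgrf4, an adhesion G protein-coupled receptor gene on chromosome 17, with r of 0.761 and rho of 0.737 (limma adjusted p = 2.95e-52). In batches A, B and C its r was 0.699, 0.743 and 0.802, and 0.754 without the 2 extreme mice. Cyp4f14, a cytochrome P450 gene of chromosome 17, followed with r of 0.679 and rho of 0.647 (limma adjusted p = 3.43e-37; 0.622, 0.628 and 0.738 in the batches; 0.680 without the 2 mice). Enpp5, also on chromosome 17, had an r of 0.665 and a rho of 0.641 (limma adjusted p = 2.31e-35; 0.797, 0.741 and 0.626; 0.662). The other 2 of its 5 genes, Gnptg and H2-Bl on chromosome 17, formed 3 clusters of mice each and get no pooled r. The H2-Bl clusters had means of -0.367, 0.0126 and 0.209 and held 27.0%, 51.5% and 21.5% of mice, and those of Gnptg held 27.0%, 52.6% and 20.3%. Within the H2-Bl clusters the r with H2-T23 was -0.0914 (79 mice), 0.0245 (148 mice) and -0.0325 (65 mice). Within those of Gnptg it was -0.256 (78 mice), -0.353 (154 mice) and -0.270 (60 mice).

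H2-K1 had Ring1, a Polycomb gene of chromosome 17, at r of 0.587 and rho of 0.563 (limma adjusted p = 1.33e-24), with 0.608, 0.520 and 0.609 in batches A, B and C and 0.565 without the 2 mice. Akap8l, on the same chromosome, had an r of 0.581 and a rho of 0.584 (limma adjusted p = 2.50e-24; 0.664, 0.675 and 0.477; 0.574). From other chromosomes came the histone gene H4c1 on 13, with r of 0.586 and rho of 0.598 (limma adjusted p = 1.33e-24; 0.710, 0.679 and 0.423; 0.576), and the semaphorin gene Sema6d on 2, with r of 0.575 and rho of 0.585 (limma adjusted p = 1.05e-23; 0.686, 0.661 and 0.433; 0.562). H2-Bl was the remaining gene, and within its 3 clusters the r with H2-K1 was -0.138, -0.0317 and 0.0532.

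For H2-Eb1 the most like gene was the class I gene H2-T9, which had no position here, with r of 0.539 and rho of 0.502 (limma adjusted p = 2.27e-19; 0.732, 0.516 and 0.458 in the batches; 0.546 without the 2 mice). The other 4, Cyp4f14, Decr2, Eci1 and Zfp871, all lie on chromosome 17. Cyp4f14 had an r of 0.513 and a rho of 0.486 (limma adjusted p = 3.53e-17; 0.717, 0.522 and 0.395; 0.552). Eci1, an enzyme of fatty acid oxidation, had an r of 0.466 and a rho of 0.432 (limma adjusted p = 1.45e-13; 0.586, 0.468 and 0.406; 0.475). Zfp871 had an r of 0.458 and a rho of 0.439 (limma adjusted p = 4.19e-13; 0.589, 0.525 and 0.345; 0.482). Decr2, a peroxisomal enzyme of fatty acid oxidation, formed clusters of 21.7% and 78.3% of mice, with r of 0.228 (64 mice) and 0.391 (228 mice) within them. Cyp4f14 was thus among the 5 of both H2-T23 and H2-Eb1.

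B2m had a different company. Of its 5 genes, Iigp1 and Tgtp1 are GTPases induced by interferon-gamma. Iigp1, on chromosome 18, had an r of 0.597 and a rho of 0.549 (limma adjusted p = 2.88e-25), with 0.628, 0.665 and 0.560 in batches A, B and C and 0.549 without the 2 mice. Tgtp1, on chromosome 11, had an r of 0.567 and a rho of 0.523 (limma adjusted p = 1.94e-22; 0.595, 0.685 and 0.511; 0.513). Polr1b, a subunit of RNA polymerase I encoded on chromosome 2 like B2m, ran the other way, with r of -0.584 and rho of -0.597 (limma adjusted p = 1.14e-23; -0.493, -0.515 and -0.655; -0.604). Pitrm1 and Invs had r of 0.548 and 0.547 and rho of 0.571 and 0.588 (limma adjusted p = 2.04e-20 for both), with 0.471 to 0.644 in the batches and 0.567 and 0.565 without the 2 mice.

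The 5 genes of Tap1 lay on 4 known chromosomes and only Zbtb22 on chromosome 17. The most like was Mmab on chromosome 5, a gene of cobalamin metabolism, with r of 0.612 and rho of 0.564 (limma adjusted p = 8.82e-27; 0.682, 0.625 and 0.580 in the batches; 0.579 without the 2 mice). Mycs, Rnf138, Wbp1 and Zbtb22 had r from 0.527 to 0.576 and rho from 0.452 to 0.555 (limma adjusted p from 5.15e-23 to 7.98e-19), positive in each batch. For H2-Aa the 5 were Alpl, Lcn10, Olfr1508, BPIL1 and Nmur2, none of them on chromosome 17 where a position was known. Alpl, the alkaline phosphatase of vessels and bone, led with r of 0.609 and rho of 0.485 (limma adjusted p = 1.19e-25; 0.445, 0.447 and 0.740; 0.527). H2-Ea had Spred2 on chromosome 11, an inhibitor of Ras signalling, with r of 0.561 and rho of 0.547 (limma adjusted p = 1.14e-21; 0.472, 0.656 and 0.555; 0.553). Hrh4, ABCB5, Tgm2 and Rexo1 followed it with r from 0.472 to 0.541 and rho from 0.438 to 0.524 (limma adjusted p from 6.32e-20 to 1.95e-14). None of the 5 lay on chromosome 17 where a position was known.

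The interferon-gamma list holds GTPases of the Gbp and Irg families, chemokines and regulators that interferon-gamma induces, and 17 of its 23 genes were measured. With H2-Eb1, 13 of the 17 were called positive and none negative, with a median r of 0.271. Of all named genes, 17.4% were called positive and 19.5% negative with H2-Eb1. In batches A, B and C alone, 9, 8 and 9 were positive and none negative, where 3.54%, 10.7% and 11.8% of all probes were called in either direction. With the first principal component in the fit 9 were positive and none negative, where 3.83% of all genes were positive. Cxcl10, a chemokine that draws T cells, had an r of 0.414 and a rho of 0.367 with H2-Eb1 (permutation p = 1e-05 for both, limma adjusted p = 1.24e-10; 0.495, 0.376 and 0.383 in the batches; 0.387 without the 2 mice). Irgm1, a regulator of the Irg GTPases, had an r of 0.369 and a rho of 0.316 (permutation p = 1e-05 for both, limma adjusted p = 3.15e-08; 0.377, 0.391 and 0.361; 0.327). Cxcl9, a related chemokine, formed clusters, with r of 0.304 in 268 mice and 0.478 in 24 mice. Socs1, an inhibitor of the pathway, was not called (r = 0.0265, rho = 0.0577, permutation p = 0.648 and 0.326, limma adjusted p = 0.748; -0.0344, -0.110 and 0.174 in the batches; 0.0349 without the 2 mice).

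With B2m, 12 of the 17 were called positive and 1 negative, with a median r of 0.311, where 18.6% of all named genes were positive and 27.9% negative. Within batches A, B and C 11, 11 and 10 were positive and 1 negative in each, where 28.1%, 44.9% and 28.2% of all probes were called in either direction. Gbp3, a guanylate-binding protein gene, had an r of 0.488 and a rho of 0.434 with B2m (permutation p = 1e-05 for both, limma adjusted p = 3.70e-16; 0.603, 0.554 and 0.416 in the batches; 0.432 without the 2 mice). With H2-K1 8 were positive and none negative (median r 0.155), where 5.16% of all genes were positive and 3.64% negative. Igtp, an Irg GTPase, led with r of 0.407 and rho of 0.382 (permutation p = 1e-05 for both, limma adjusted p = 5.57e-11; 0.452, 0.324 and 0.418; 0.399). In batch B alone none of the 17 was called with H2-K1 in limma, 3 were positive at an unadjusted p under 0.05, and the median r was 0.0478. There 2% of all probes were called. In batches A and C 5 and 4 were positive, where 1.81% and 1.28% of all probes were called. With H2-T23 8 were positive and none negative (median r 0.132), where 14.7% of all genes were positive. Gbp3 had an r of 0.321 and a rho of 0.330 with it (permutation p = 1e-05 for both, limma adjusted p = 5.48e-07; 0.408, 0.385 and 0.256; 0.323). In batches A, B and C alone 3, 2 and 0 were positive, with 9 positive at an unadjusted p under 0.05 in limma in batch C. Of all probes, 24.3%, 14.2% and 1.7% were called with H2-T23 in these batches.

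For Tap1, 10 were positive and 1 negative (median r 0.153), where 29.3% of all genes were positive. Irf8, a transcription factor of microglia and other myeloid cells, had an r of 0.405 and a rho of 0.401 with Tap1 (permutation p = 1e-05 for both, limma adjusted p = 3.27e-11; 0.547, 0.489 and 0.242; 0.405). H2-Aa had 2 positive and 2 negative, where 23.7% of all genes were positive, and H2-Ea none in either direction, where 7.73% were positive and 10.4% negative. The median r was 0.0269 with H2-Aa and -0.00912 with H2-Ea. For H2-Ea, 0 of 17 also passed at an unadjusted p under 0.05 in limma and 0 by the rank correlation.

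**Figure D5:**
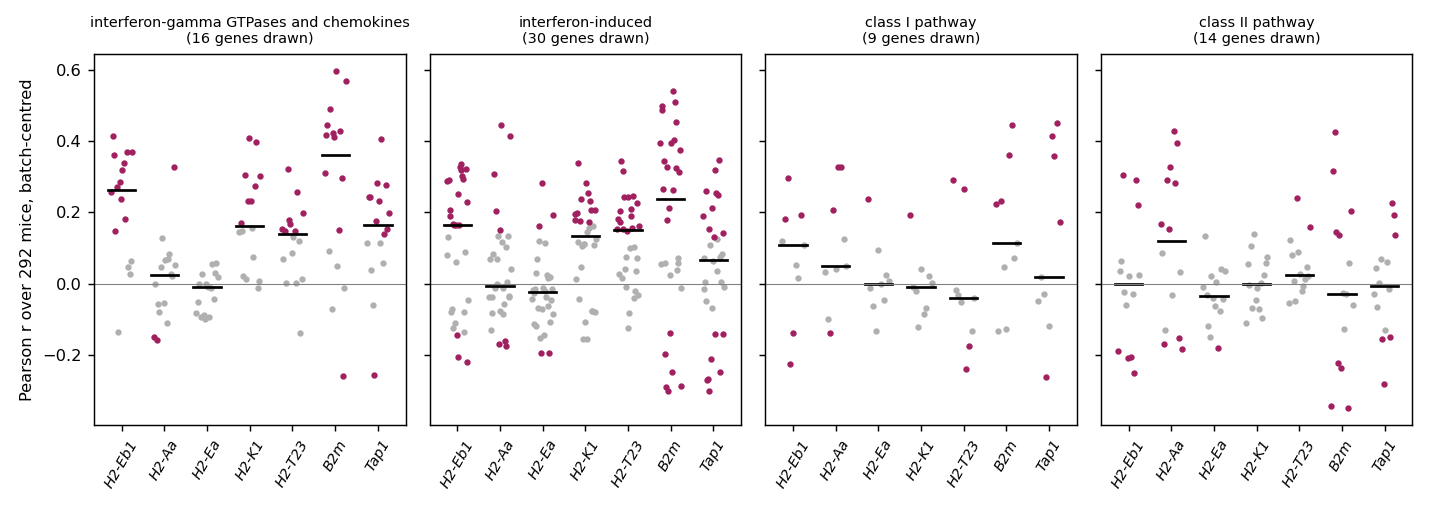
Pearson r over 292 mice (vertical axis) of the genes of 4 lists with each of the 7 measured genes (horizontal axis), coloured where the adjusted p was under 0.05, with a bar at the median and without genes whose values form clusters. The interferon-gamma genes lie mostly above 0 with H2-Eb1 and B2m, while with H2-Ea none is called.

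The wider list of interferon-induced genes had 31 of 39 genes measured. With B2m 18 were positive and 6 negative (58.1% and 19.4%, against 18.6% and 27.9% of all named genes), with a median r of 0.263. Within batches A, B and C 17, 15 and 12 were positive, where 11.6%, 20.3% and 12.9% of all genes were. Oasl2, a member of the oligoadenylate synthetase family, had an r of 0.539 and a rho of 0.539 with B2m (permutation p = 1e-05 for both, limma adjusted p = 3.95e-20; 0.577, 0.562 and 0.537; 0.526). Parp9 had an r of 0.508 and a rho of 0.510 (permutation p = 1e-05 for both, limma adjusted p = 1.58e-17; 0.551, 0.632 and 0.421; 0.499), and Ifih1, the RNA sensor MDA5, an r of 0.499 and a rho of 0.502 (permutation p = 1e-05 for both, limma adjusted p = 7.83e-17; 0.491, 0.702 and 0.385; 0.491). Zbp1, a sensor of nucleic acids, was not called over all mice (r = -0.0131, rho = 0.00681, permutation p = 0.824 and 0.907, limma adjusted p = 0.875), with r of -0.254 and -0.333 in batches A and B and 0.345 in batch C, and -0.0495 without the 2 mice.

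With H2-Eb1 16 of the 31 were positive and 3 negative (51.6% and 9.68%, against 17.4% and 19.5% of all genes), with a median r of 0.163. H2-T23 had 16 and none (51.6% positive against 14.7%, median r 0.148) and H2-K1 12 and none (38.7% against 5.16%, 0.124). Near or under the shares of all genes lay Tap1 with 10 and 7 (32.3% and 22.6%, against 29.3% and 24.4%), H2-Aa with 5 and 4 (16.1% and 12.9%, against 23.7% and 19.3%) and H2-Ea with 3 and 2 (9.68% and 6.45%, against 7.73% and 10.4%). Their median r was 0.0638, -0.0105 and -0.0263. In batch B alone none was called with H2-K1 in limma, with 3 positive at an unadjusted p under 0.05. Irf7, the regulator that amplifies type I interferon responses, was the gene nearest to both class I heavy chains. Its r with H2-T23 was 0.342 and rho 0.345 (permutation p = 1e-05 for both, limma adjusted p = 7.58e-08; 0.327, 0.245 and 0.402; 0.341). With H2-K1 the r was 0.338 and rho 0.308 (permutation p = 1e-05 for both, limma adjusted p = 3.11e-07; 0.361, 0.243 and 0.374; 0.336). Parp9 led for H2-Eb1, with r of 0.334 and rho of 0.270 (permutation p = 1e-05 for both, limma adjusted p = 1.07e-06; 0.356, 0.421 and 0.281; 0.319). H2-Aa went with Xaf1, at r of 0.415 and rho of 0.417 (permutation p = 1e-05 for both, limma adjusted p = 2.40e-11; 0.340, 0.492 and 0.420; 0.435). Of the 7 interferon receptors and kinases, H2-K1 had none called in limma, none at an unadjusted p under 0.05 and none by the rank correlation, and H2-T23 only Ifngr2, positive, where 14.7% of all genes were. Tyk2, a kinase of the type I receptor, had an r of 0.454 and a rho of 0.412 with Tap1 (permutation p = 1e-05 for both, limma adjusted p = 6.58e-14; 0.574, 0.463 and 0.328; 0.397).

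The class I pathway list holds the peptide-loading complex and the immunoproteasome, and 11 of its 13 genes were measured. With B2m 6 were positive and none negative (54.5% positive, against 18.6% of all genes), with a median r of 0.152. With Tap1 5 were positive and 1 negative (45.5% and 9.09%, against 29.3% and 24.4%), with a median r of 0.104. Psmb9, an immunoproteasome subunit whose gene neighbours Tap1, had an r of 0.446 and a rho of 0.361 with B2m (permutation p = 1e-05 for both, limma adjusted p = 2.67e-13; 0.393, 0.424 and 0.477; 0.374). With Tap1 its r was 0.356 and rho 0.295 (permutation p = 1e-05 for both, limma adjusted p = 6.62e-09; 0.394, 0.318 and 0.398; 0.314). Psme1, a subunit of the proteasome activator, was the gene nearest to Tap1, with r of 0.450 and rho of 0.476 (permutation p = 1e-05 for both, limma adjusted p = 1.13e-13; 0.624, 0.526 and 0.250; 0.484). Psmb8 followed Tap1 with r of 0.413 and rho of 0.382 (permutation p = 1e-05 for both, limma adjusted p = 1.15e-11; 0.559, 0.420 and 0.314; 0.412). H2-K1 had 1 positive, the chaperone Calr, and none negative (9.09% positive against 5.16%). H2-T23 had 2 and 2 (18.2% each, against 14.7% and 15.6%), H2-Eb1 3 and 2 (27.3% and 18.2%, against 17.4% and 19.5%), H2-Aa 4 and 1 (36.4% and 9.09%, against 23.7% and 19.3%) and H2-Ea 1 and none (9.09% positive against 7.73%). With so few genes a share moves by 9.09 percentage points for each gene.

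All 15 genes of the class II pathway list were measured. With H2-Aa 8 were positive and 3 negative (median r 0.152), where 23.7% of all genes were positive and 19.3% negative. H2-Oa, the alpha chain of the DO molecule that tunes peptide loading, had an r of 0.428 and a rho of 0.305 with H2-Aa (permutation p = 1e-05 for both, limma adjusted p = 4.94e-12; 0.261, 0.312 and 0.587; 0.339). Ifi30, a lysosomal thiol reductase, had an r of 0.394 and a rho of 0.355 (permutation p = 1e-05 for both, limma adjusted p = 2.47e-10; 0.236, 0.387 and 0.499; 0.398). H2-DMb2, a chain of the peptide exchanger DM, had an r of 0.327 and a rho of 0.369 (permutation p = 1e-05 for both, limma adjusted p = 3.04e-07; 0.182, 0.350 and 0.406; 0.387). In batch A alone none of the 15 was called with H2-Aa in limma, with 2 positive at an unadjusted p under 0.05, where 1.13% of all probes were called. In batch C 8 were positive, where 41.8% of all probes were called in either direction. H2-Eb1 had 3 positive and 5 negative (20% and 33.3%, against 17.4% and 19.5%), with a median r of -0.0241. Ctss, the cathepsin that trims the invariant chain, led with r of 0.305 and rho of 0.293 (permutation p = 1e-05 for both, limma adjusted p = 9.88e-06; 0.292, 0.245 and 0.347; 0.315). H2-Ea had none positive and 1 negative, H2-Ob (6.67% negative against 10.4%). B2m had 5 and 5 (33.3% each, against 18.6% and 27.9%), Tap1 3 and 4 (20% and 26.7%, against 29.3% and 24.4%) and H2-T23 2 and none (13.3% positive against 14.7%). H2-K1 had none in limma, 1 at an unadjusted p under 0.05 and none by the rank correlation. Ciita, the master regulator of class II, was not called with H2-K1 at an r of -0.112 (rho -0.0679, permutation p = 0.0609 and 0.250, limma adjusted p = 0.237; -0.0718, -0.127 and -0.135; -0.0695), and was called with the first principal component in the fit (r = -0.159, adjusted p = 0.0492). With B2m Ciita was negative, at r of -0.344 and rho of -0.334 (permutation p = 1e-05 for both, limma adjusted p = 7.76e-08; -0.314, -0.543 and -0.231 in the batches; -0.351 without the 2 mice).

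Of the other class I genes, 16 of 24 were measured, and signs were mixed. H2-T23 had 6 positive and 2 negative (37.5% and 12.5%, against 14.7% and 15.6% of all genes), B2m 6 and 3 (37.5% and 18.8%, against 18.6% and 27.9%) and H2-K1 3 and 2 (18.8% and 12.5%, against 5.16% and 3.64%). H2-Eb1 had 4 and 4 (25% each, against 17.4% and 19.5%), H2-Aa 4 and 3 (25% and 18.8%, against 23.7% and 19.3%), Tap1 4 and 3 (25% and 18.8%, against 29.3% and 24.4%) and H2-Ea none and 2 (12.5% negative against 10.4%). H2-T9 went with H2-T23 (r = 0.632, rho = 0.630, permutation p = 1e-05 for both, limma adjusted p = 1.01e-30; 0.535, 0.559 and 0.713; 0.631) and with H2-K1 (r = 0.526, rho = 0.517, permutation p = 1e-05 for both, limma adjusted p = 1.67e-19; 0.516, 0.467 and 0.563; 0.516). H2-Q5 ran against both, with r of -0.583 and rho of -0.574 for H2-T23 (permutation p = 1e-05 for both, limma adjusted p = 4.05e-25; -0.604, -0.678 and -0.520; -0.574). For H2-K1 its r was -0.496 and rho -0.482 (permutation p = 1e-05 for both, limma adjusted p = 5.45e-17; -0.516, -0.555 and -0.448; -0.487). H2-Q8 formed clusters, and in the larger, of 275 mice, its r was 0.433 with H2-Eb1 and 0.371 with H2-K1. B2m went with H2-M3, which presents formylated peptides, at r of 0.495 and rho of 0.423 (permutation p = 1e-05 for both, limma adjusted p = 1.47e-16; 0.628, 0.724 and 0.284; 0.472). Near-identical copies may share probes in this family too, which was not tested.

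Counts of markers of cell types that carry MHC molecules are given beside the share of all named genes called in that direction. Of the 9 measured microglia markers, 4 were positive and none negative with H2-Eb1 (44.4%, against 17.4% of all genes, median r 0.137), as were 4 with H2-Aa (44.4% against 23.7%, 0.131), 3 with H2-K1 (33.3% against 5.16%, 0.0883) and 3 with H2-T23 (33.3% against 14.7%, 0.0635). With Tap1 6 were positive and 1 negative (66.7% and 11.1%, against 29.3% and 24.4%, 0.149), and with B2m 4 and 2 (44.4% and 22.2%, against 18.6% and 27.9%, -0.0227). In batch C alone none of the 9 was called with Tap1 or H2-T23 in limma, where 20.8% and 1.7% of all probes were. At an unadjusted p under 0.05 in limma, 1 and 3 were positive there. With H2-K1 none was called in batch B or C, where 2% and 1.28% of all probes were, and 0 and 1 passed unadjusted. With H2-Eb1 none was called in batch B, where 10.7% of all probes were, and 1 passed unadjusted. Of 8 leptomeningeal markers 6 were positive with H2-Eb1 and none negative (75% against 17.4%, 0.175), and none was called with H2-K1, with 1 negative at an unadjusted p under 0.05 in limma and none by the rank correlation. In batch B alone none of the 8 was called with H2-Eb1, where 10.7% of all probes were, and 2 were positive at an unadjusted p under 0.05 in limma. H2-Aa had 5 of 8 T and NK cell markers positive (62.5% against 23.7%) and 2 of 4 B cell markers (50% against 23.7%), none negative. In batches A and B alone none of these, nor any microglia marker, was called with H2-Aa in limma, where 1.13% and 4.32% of all probes were. At an unadjusted p under 0.05 in limma, 0 and 5 T and NK cell markers were positive there, 2 and 1 B cell markers, and 1 and 4 microglia markers. In batch C alone 41.8% of all probes were called with H2-Aa. Tap1 had 1 positive and 4 negative T and NK cell markers (12.5% and 50%, against 29.3% and 24.4%) and B2m 2 and 4 (25% and 50%, against 18.6% and 27.9%). The T and NK cell counts include Cd4 and Gzma, whose values form clusters. Within the Cd4 clusters its r with H2-Aa was 0.0998 (248 mice) and 0.512 (44 mice). Erythrocyte markers, a sign of blood in the tissue, were positive in 3 of 5 with B2m (60% against 18.6%), 2 with H2-T23 (40% against 14.7%) and 1 with H2-K1 (20% against 5.16%), and Alas2 among them forms clusters. In no single batch was an erythrocyte marker called with H2-T23 or H2-K1 in limma, where 1.7% to 24.3% and 1.28% to 2% of all probes were. None was called with B2m in batch C, where 28.2% of all probes were. At an unadjusted p under 0.05 in limma, 5 were positive with H2-K1 in batch B and 1 with H2-T23 in each of batches B and C. The part of these cell types in the relations above was not tested.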

How the data were processed

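Brain RNA of 292 F2 mice was compared with a common pool on 2-colour arrays. Each array contributed 1 deposited value per probe, read here as a log10 ratio with the pool in the denominator. Per the labels, RNA was purified on spin columns, treated with DNase, amplified and dye-labelled. How images, background and scaling were handled is not given in the sources used here. No array was rescaled. The table held no column that could not be mapped to a sample.

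The 25 probes missing on more than 5% of arrays were left out, which left 23549, and the mean of the probe replaced each of 252 missing values. Array batches were taken from probes missing on at least 20 arrays. Of the probes used, 13647 had 1 annotated gene, 48 several and 9854 none. Of the first, 12644 matched the RefSeq gene table of GRCm38.p6 by gene identifier, and 1003 kept the name of the annotation. H2-Ea was matched by symbol, as its identifier was not in the table. A gene's probe with the largest SD stood for it. Genes whose table start lay before base 3000000 of a chromosome, a range without sequence in the main assembly, had no place in the gene order.

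Levels, batches, spelling forms, trends and relations were fitted over all probes in R 4.3.3 by limma 3.58.1, at a threshold of 0.05 after Benjamini-Hochberg adjustment. Relations had batch as a term. Mixtures used mclust 6.1.1, and clusters needed a gain in the Bayesian information criterion above 10, means over 3 SDs apart and at least 5% of mice each. A gene with clusters gets r within them only. Medians and counts over lists include such genes. The fits were tested on simulated data.

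The members and the gene lists were chosen with earlier results of these data known. The members, the 3 genes with the largest and the 1 with the smallest absolute r of each pathway list, and the 5 most like genes of each member could be named; of these the text gives those that describe a list, and Eif2s3y was added after its values were seen. Alternatives left out the batch term, took batches singly, added the first principal component, equalised the spread of arrays, used ranks, left out 2 mice or incomplete probes, averaged probes, and turned the sign.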

Additional observations from a re-analysis of the deposited data

Results flagged for a closer look

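For 7 relations among the most like genes, the slope differed between array batches by limma's interaction test, adjusted over all probes; the cause was not tested. H2-Eb1 with Zfp871 (adjusted p = 0.0300) had r of 0.589, 0.525 and 0.345 in batches A, B and C. H2-Aa with Lcn10 (adjusted p = 0.00254) had 0.337, 0.440 and 0.685, with Olfr1508 (adjusted p = 0.000202) 0.356, 0.319 and 0.707, and with BPIL1 (adjusted p = 3.90e-05) 0.479, 0.169 and 0.686. H2-K1 with H4c1 (adjusted p = 1.68e-05) had 0.710, 0.679 and 0.423. B2m with Pitrm1 (adjusted p = 0.000753) had 0.602, 0.644 and 0.471, and Tap1 with Wbp1 (adjusted p = 0.0164) 0.716, 0.582 and 0.345. All of these values were positive in each batch. The share of all probes whose relation differed between batches was 0.14% for H2-Eb1, 11.7% for H2-Aa, 0.178% for H2-K1, 37.4% for B2m and 16.7% for Tap1.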

How the results depend on the processing

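No paired analysis was possible because the mice form 1 group. For the levels, centring arrays on their medians, array weights and base 2 turned no direction and changed no call by the rule with a fold, but with array weights H2-Aa passed on the adjusted p alone (-0.00411) and H2-Eb1 moved from -0.00695 to -0.00233. Directions and calls also stayed with complete probes for the pairs, and counts within 1.5 times with complete probes for the relations and averaged probes for the lists. No mixture setting gave clusters for a member. Without a fold threshold 5 members passed against the pool. With the sign turned, the means against the pool were 0.00695 for H2-Eb1, 0.0149 for H2-Ea, 0.000769 for H2-Aa, 0.0174 for H2-K1, 0.0153 for H2-T23, -0.0199 for B2m and 0.0121 for Tap1. Means turned in batch A alone for H2-Ea (0.00476) and Tap1 (0.00941), and in batch B alone for H2-Eb1 (0.0169), H2-Aa (0.00790), H2-T23 (0.00808) and B2m (-0.0110). Without the batch term 5 members followed the mouse number, and the slopes per 100 numbers turned for H2-Ea (-0.0130), H2-Aa (-0.00176) and B2m (0.0198). Within batches, slopes turned for H2-Aa (-0.000553) and H2-T23 (0.0308) in A, H2-Ea (-0.00590) and H2-T23 (0.00883) in B, and B2m (0.0195) and Tap1 (0.00889) in C. The probes called in batch A alone were 833 for H2-Eb1, 506 for H2-Ea, 265 for H2-Aa, 427 for H2-K1 and 6628 for B2m, in batch B alone 2509 for H2-Eb1, 388 for H2-Ea, 1017 for H2-Aa, 470 for H2-K1, 3335 for H2-T23 and 7127 for Tap1, and in batch C alone 2769 for H2-Eb1, 302 for H2-K1, 400 for H2-T23, 6652 for B2m and 4903 for Tap1, on fewer mice. Without the batch term they were 9542 for H2-Ea and 4429 for H2-K1, with the first principal component 1661 for H2-Eb1 and 3703 for H2-K1, with equal array spread 6844 for H2-Aa and 1328 for H2-K1, and for H2-K1 1389 by rank and 1230 without the 2 mice. Of the pairs, 5, 4 and 6 were called in batches A, B and C alone. With the genes the pairs were read from, 1.13% to 28.1%, 1.65% to 44.9% and 1.28% to 41.8% of all probes were called there. Pairs that turned were H2-Aa with H2-T23 (0.0639) and with Tap1 (-0.0637) in batch A; H2-Ea with H2-K1 (-0.258), H2-T23 (-0.147) and B2m (-0.150), H2-Aa with B2m (-0.134) and H2-K1 with Tap1 (-0.0388) in batch B; and H2-Eb1 with H2-Ea (0.0826), H2-Ea with H2-Aa (-0.0884) and Tap1 (0.0348), and H2-T23 with Tap1 (0.0253) in batch C. H2-Eb1 with H2-Ea also turned with the first principal component (0.0226) and by rank (0.00346), H2-Ea with H2-Aa with that component (-0.00176), and H2-Aa with Tap1 by rank (-0.0453) and without the 2 mice (-0.0286). Without the batch term the positive class II genes were 3 with H2-Ea, 1 with H2-K1, 4 with H2-T23 and 5 with Tap1, the class I genes 2 with H2-Ea, the interferon-gamma genes 1 with H2-Ea, the receptors and kinases 1 with H2-Ea, 0 with H2-Aa and 2 with H2-T23, and 191 chromosome 17 genes were called with H2-Ea. That is 37.7% of the chromosome 17 genes, against 40.5% of genes elsewhere. Of all probes, 40.5% were called in either direction with H2-Ea, 43.5% with H2-Aa, 18.8% with H2-K1, 35.8% with H2-T23 and 61.7% with Tap1. With the first principal component the positive class II genes were 4 with H2-T23 and 3 with B2m, the class I genes 1 with H2-Eb1 and 4 with H2-T23, the interferon-gamma genes 4 with H2-Aa, the receptors and kinases 0 with H2-Eb1, H2-Aa and H2-T23, and 98 chromosome 17 genes were called with H2-Eb1. These are 19.3% of the chromosome 17 genes, against 6.82% elsewhere. Shares of all probes called were then 7.05% with H2-Eb1, 35.5% with H2-Aa, 34.7% with H2-T23 and 45.2% with B2m. With equal array spread the class I genes were 0 with H2-K1, and the receptors and kinases 1 with H2-Eb1 and 0 with H2-Aa. The shares of all probes called were 5.64%, 30.3% and 29.1% with these members. Where no cause is shown by the smaller number of mice, the cause was not tested.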

Other observations

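Counts of other cell type markers are given beside the share of all named genes called in that direction. With H2-K1, 3 of 5 neutrophil markers were positive and none negative (60%, against 5.16% of all genes, median r 0.189). In batches A, B and C alone none was called with H2-K1 in limma, where 1.81%, 2% and 1.28% of all probes were. At an unadjusted p under 0.05 in limma, 4 were positive in batch B and none in A or C. S100a8, 1 of the 5, forms clusters, with r of 0.137 (279 mice) and 0.0771 (13 mice) with H2-K1. H2-Eb1 had 3 of 7 choroid plexus markers positive and 2 negative (42.9% and 28.6%, against 17.4% and 19.5%). B2m had 3 of 6 endothelial markers positive (50% against 18.6%, median r 0.169) and 4 of 7 markers of border macrophages and monocytes (57.1% against 18.6%, median r 0.149), none negative in either list. Cdh5, 1 of the endothelial markers, forms clusters, with r of 0.472 (56 mice) and 0.166 (236 mice) with B2m. All 4 measured anterior pituitary genes form clusters, so that no count is read from them: within clusters the r with H2-Eb1 was 0.159 and 0.113 for Gh, -0.0096 and -0.0570 for Prl, 0.102 and 0.194 for Tshb, and 0.0527, 0.0446 and 0.0997 for Cga. With H2-Ea, at most 2 markers of a list were called in any of the 14 lists, where 19.3% of all probes were called.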
